A study of Mus musculus with 4 samples.

Results

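Arg1-negative tumour macrophages that carried transcripts of Mrc1, Folr2 or Pf4 were described in mouse pancreatic tumours. A barcode was kept when it had at least 200 detected genes, at least 500 UMIs (unique molecular identifiers, each a counted transcript molecule) and at most 10% mitochondrial UMIs. A kept cell was a member, chosen by its raw UMIs, when it held at least 4 UMIs of C1qa, C1qb and C1qc in sum, at least 1 UMI of Mrc1, Folr2 or Pf4, no UMI of Arg1, and none of the T cell gene Cd3e or the B cell gene Cd79a. This rule found 377 members among 14855 kept cells, or 2.54%. They were set against 358 macrophages that met the same C1q and lymphocyte criteria and held 2 or more Arg1 UMIs, called Arg1 macrophages below.

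The members came from 4 libraries of CD45-enriched cells, made by FACS from orthotopic B6KPC3 tumours in the pancreas of C57BL/6 mice. AT38, a compound known from the labels by its code name, was given at 30 mg/kg/d in 1% carboxymethyl cellulose, as a double i.p. injection on each of 7 days, to mice whose tumours were 7 days old at the start. Control mice got the carboxymethyl cellulose vehicle alone by the same schedule. Each group had 2 libraries, each a pool of 4 mice, so the pool was the replicate and p-values measure the spread between pools. The age and sex of the mice are not given in the sources used here. By its title the series is about nitrosative stress and T cells that attack the tumour, and the question here is how members differed between AT38 and vehicle tumours.

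Tissue macrophages express C1q, the recognition protein of the classical complement pathway. Mrc1 (the mannose receptor CD206) and Folr2 (folate receptor beta) mark macrophages with scavenging functions, and Folr2 with Lyve1 is commonly used for long-lived tissue-resident macrophages. Arg1 encodes arginase 1, which consumes arginine and is known in tumours as a marker of macrophages that restrain T cells. Pf4 encodes a chemokine of platelets that some tissue macrophages also express.

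The AT38 libraries held 30232623 and 24294215 UMIs and the vehicle libraries 24875092 and 34386076. Members held 1055168 and 799900 UMIs in AT38 1 and AT38 2, against 478967 and 897015 in vehicle 1 and vehicle 2. Levels are given as CPM, the UMIs of a gene summed over the cells of a class in a library and scaled by all UMIs of those cells to a common total. Of the kept barcodes, 17 occurred in more than 1 library, and 0 of these were members. Members were checked against the markers of macrophages and of the other cell types in the sort. Of the 13 macrophage markers, 6 are genes of the rule, and the rule also set Cd3e and Cd79a to 0, so only the other markers bear on the label. Csf1r, the receptor for the macrophage growth factor CSF1, was at 415 and 548 CPM with AT38 and at 493 and 415 CPM with vehicle, against 29.8 to 68.9 CPM in lymphocytes (kept cells with at least 2 UMIs of Cd3e and Cd79a). Adgre1, the macrophage surface protein F4/80, was at 238 and 266 CPM with AT38 and at 259 and 224 CPM with vehicle, against 15.05 to 27.3 CPM in lymphocytes. Markers of T cells summed to 77.3 to 203 CPM and those of B cells to 109 to 152 CPM, and markers of red blood cells and mast cells were at or near 0. The levels of Csf1r and Adgre1, which the rule did not use, did not go against the label of macrophage.

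Other cell types were present at lower levels and unevenly. The 8 neutrophil markers summed to 1703 and 1861 CPM in the AT38 libraries and to 2023 and 4202 CPM in the vehicle libraries, with S100a8 highest in vehicle 2 at 1993 CPM. The 9 dendritic cell markers summed to 381 and 328 CPM with AT38 and to 234 and 238 CPM with vehicle. The 6 monocyte markers summed to 1589 and 1236 CPM in members with AT38 and to 1205 and 1501 CPM with vehicle. They were at 795 to 1173 CPM in Arg1 macrophages and at 628 to 812 CPM in lymphocytes. Fibroblast markers reached 169 CPM in AT38 1 and 0 to 7.50 CPM elsewhere, and the epithelial gene Krt8 had 55 of its 56 UMIs in AT38 1 in a single member. The part of these cells or of their free RNA in the results was not tested, except where values without the affected members are given.

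The gate itself was carried mainly by Mrc1. A Mrc1 UMI was found in 342 members (90.7%), a Pf4 UMI in 172 (45.6%) and a Folr2 UMI in 110 (29.2%), and 67 members (17.8%) had all 3. Mrc1 was the only marker in 166 members. Because members were selected on these genes, their levels are a description, with no test. Mrc1 was at 718 and 716 CPM in members of the AT38 libraries and at 1054 and 599 CPM in those of the vehicle libraries, against 34.0 to 65.1 CPM in lymphocytes. After thinning each cell to 1000 UMIs, 48.6% to 51.3% of members had a Mrc1 UMI, against 1.70% to 3.84% of lymphocytes. Arg1 macrophages, on which no condition of these markers was set, had a Mrc1 UMI in 27.6% to 47.7% after this thinning. Folr2 was at 218 and 148 CPM in members of AT38 libraries and at 217 and 92.5 CPM in those of vehicle libraries. In Arg1 macrophages Folr2 was at 71.8 and 35.8 CPM with AT38 and 33.9 and 73.0 CPM with vehicle. Pf4 was at 462 and 515 CPM with AT38 and 303 and 236 CPM with vehicle in members. It was higher in Arg1 macrophages of each library, at 582 and 623 CPM with AT38 and 349 and 755 CPM with vehicle.

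Members near 2 edges of the gate had less Apoe, a lipoprotein gene abundant in macrophages, than members as a whole, which had 6034 to 8181 CPM. The 34 members with 4 or 5 C1q UMIs had a median over libraries of 1872 CPM of Apoe, against 653 CPM in 61 cells just outside with 2 or 3. The 95 members with a single marker UMI had 2356 CPM of Apoe, against 830 CPM in the 157 Arg1-negative C1q macrophages with no marker UMI. In 58 cells that met every other criterion but held 1 Arg1 UMI, Apoe was at 5402 CPM.

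Members made up a larger part of the C1q macrophages in AT38 tumours, but 2 libraries against 2 cannot show a difference by a permutation test. Members were 43.9% and 45.4% of the C1q macrophages in the AT38 libraries and 33.1% and 34.3% in the vehicle libraries, or 44.6% ± 1.07 and 33.7% ± 0.805 (SD, n = 2 each). The groups did not overlap, and the difference of 10.9 percentage points had an exact two-sided permutation p of 0.33, the smallest that this design allows. As a share of kept cells, members were 3.15% (exact 95% binomial interval 2.61% to 3.77%) and 2.62% (2.09% to 3.23%) in the AT38 libraries, and 1.90% (1.44% to 2.45%) and 2.42% (2.02% to 2.89%) in the vehicle libraries. The intervals cover counting error only, and those of AT38 2 and vehicle 2 overlap. The difference of 0.723 points had the same exact permutation p of 0.33. Arg1 macrophages were 1.81% and 1.59% of kept cells with AT38 and 2.93% and 3.06% with vehicle, while all C1q macrophages were 7.18% and 5.77% with AT38 and 5.73% and 7.07% with vehicle.

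**Figure D1:**
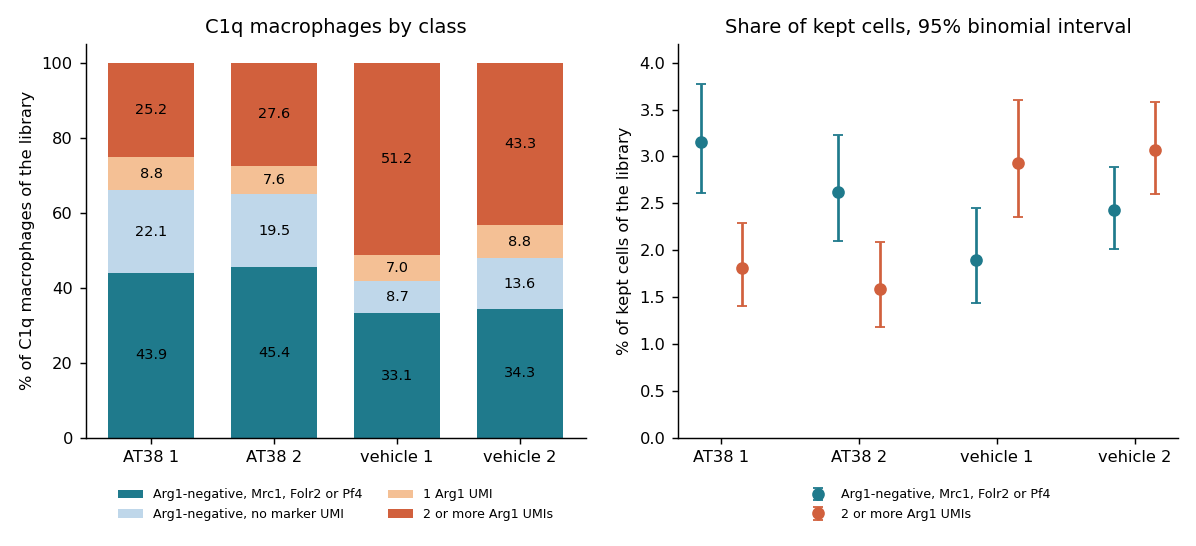
Left, percent of the C1q macrophages of each library in 4 classes set by their Arg1 and marker UMIs. Right, percent of kept cells that were members or Arg1 macrophages, with exact 95% binomial intervals; members were 43.9% and 45.4% of C1q macrophages in the AT38 libraries and 33.1% and 34.3% in the vehicle libraries.

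Arg1 transcripts outside macrophages and sequencing depth both bear on this split. Arg1 was at 96.1 and 21.4 CPM in lymphocytes of the AT38 libraries and at 287 and 241 CPM in lymphocytes of the vehicle libraries, and 6.69% and 3.40% of lymphocytes had an Arg1 UMI with AT38, against 11.96% and 10.1% with vehicle. Median depth was 6270 and 6839 UMIs per member with AT38 and 6907 and 5958 with vehicle, while Arg1 macrophages had 13653 and 7677 UMIs with AT38 and 9192 and 10241 with vehicle. When cells were thinned to 2000 UMIs, leaving out 667 and 546 shallower cells with AT38 and 584 and 1301 with vehicle, and gated again, the difference in the share of C1q macrophages was 11.4 points. Of the thinned members, 63 of 105 and 49 of 72 with AT38 and 33 of 46 and 66 of 97 with vehicle were members at full depth. How much Arg1 background moved cells out of the gate was not tested.

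Within the members, the Folr2-positive cells stood apart, and the following is a description of subsets cut by a gate gene, with no test. The 110 members with a Folr2 UMI were 29.2% of members but held 97.2% of the UMIs of Lyve1, a hyaluronan receptor of resident macrophages. They also held 93.4% of those of the haemoglobin scavenger receptor Cd163 and 97.3% of those of Timd4, a receptor for apoptotic cells. Lyve1 was at 305 and 170 CPM in Folr2-positive members with AT38 and at 391 and 211 CPM with vehicle, against 0 to 9.16 CPM in Folr2-negative members. Gas6, a bridge between apoptotic cells and their receptors, was at 368 and 595 CPM with AT38 and 590 and 389 CPM with vehicle in Folr2-positive members, and at 25.2 to 71.7 CPM in Folr2-negative members. Each of these genes was higher in the Folr2-positive subset of all 4 libraries.

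Chemokines divided between the same subsets. Ccl8, a chemokine that draws monocytes and T cells, had 77.5% of its member UMIs in the Folr2-positive cells, at 3088 and 2962 CPM with AT38 and 3104 and 594 CPM with vehicle. In vehicle 1 a single cell held 359 of the 421 Ccl8 UMIs of this subset, and in AT38 1 a single member held 397 of 1488. In Folr2-negative members Ccl8 was at 386 and 461 CPM with AT38 and at 64.1 and 116 CPM with vehicle. Cxcl9, an interferon gamma-induced chemokine for T cells, went the other way, with 93.0% of its UMIs in the 267 Folr2-negative members, which were 70.8% of members. It was at 476 and 954 CPM with AT38 and 216 and 233 CPM with vehicle in Folr2-negative members. In Folr2-positive members Cxcl9 was at 120 and 6.07 CPM with AT38 and 0 and 223 CPM with vehicle, so the subsets were close in vehicle 2. The MHC class II gene H2-Ab1 was at 5844 and 3102 CPM with AT38 and 2824 and 2040 CPM with vehicle in Folr2-positive members, and at 5317 and 6524 CPM with AT38 and 5522 and 4783 CPM with vehicle in Folr2-negative members. H2-Ab1 was thus higher in the Folr2-negative subset of 3 libraries and lower in that of AT38 1. S100a8 was highest in the Folr2-negative members of vehicle 2, at 2301 CPM.

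**Figure D2:**
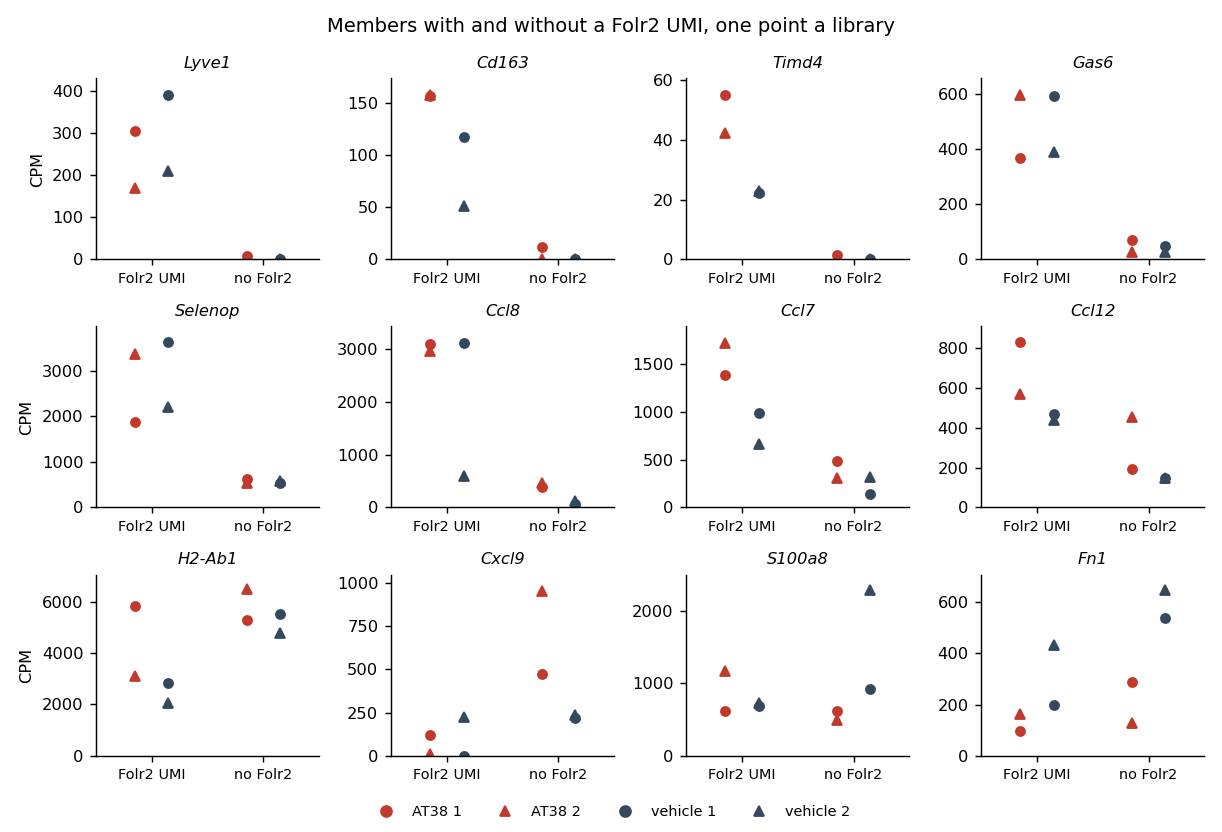
CPM of 12 genes in members with a Folr2 UMI (left of each panel) and without (right), with AT38 libraries in red and vehicle libraries in dark blue. Lyve1, Cd163, Timd4, Gas6 and Selenop are higher in the Folr2-positive subset of every library. Ccl8 of vehicle 1, at 3104 CPM, rests on 1 cell with 359 of 421 UMIs.

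AT38 and vehicle members differed in few genes. Of 7488 genes tested, 7 were higher (0.0935%) and 10 lower (0.134%) with AT38 at an adjusted p under 0.05 by edgeR's quasi-likelihood test with Benjamini-Hochberg adjustment, and 561 had an unadjusted p under 0.05. Fold changes are given on a log2 scale with the standard error of the model. The higher genes were, from the largest fold change down, the interferon gene Ifnb1, the dendritic cell gene Fscn1, the GTPase gene Iigp1, the receptor gene Tnfrsf9, the monocyte chemokines Ccl12 and Ccl7, and a gene model. The lower genes held the protease inhibitor Slpi, the matrix gene Fn1, the lipid genes Lpl and Gpnmb, and several genes known from neutrophils or inflamed myeloid cells. Both AT38 libraries lay above both vehicle libraries in 18.3% of all genes tested, and below them in 19.2%.

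Ifnb1, which encodes interferon beta, the type I interferon that macrophages release after sensing of nucleic acids or microbes, was at 54.0 and 48.8 CPM in members of the AT38 libraries, against 6.26 and 6.69 CPM in those of the vehicle libraries. The AT38 libraries lay above both vehicle libraries, with a log2 fold change of 2.96 ± 0.40 (edgeR adjusted p = 0.00413). The gene lies on chromosome 4 at 88522025 to 88522774 on the minus strand (mm10). Its 105 UMIs came from only 24 of the 377 members, and 73.3% of them from 5 cells, with 42 in a single cell of AT38 1. An Ifnb1 UMI was found in 6.96% and 13.1% of AT38 members and in 3.51% and 2.48% of vehicle members, against 0.775% to 1.14% of lymphocytes. In Arg1 macrophages Ifnb1 was at 9.37 and 24.5 CPM with AT38 and 18.8 and 6.04 CPM with vehicle, and these overlap. The difference between the classes in the AT38 effect did not pass its own test (edgeR adjusted p = 0.238). With the C1q minimum set to 8, the fold change in members was 2.08 and no longer passed (edgeR adjusted p = 0.428), and without 64 members rich in S100a8 and S100a9 it was 3.33 with no call (edgeR adjusted p = 0.0684).

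The 250 bases before the annotated start of Ifnb1 (RefSeq, GRCm38.p6, chr4:88522795-88523044, minus strand) are shown because this region is the textbook case of an interferon promoter. Those of Ccl12 (chr11:82101595-82101844, plus strand) are shown beside it as the chemokine that rose with AT38 in both macrophage classes.
Ifnb1: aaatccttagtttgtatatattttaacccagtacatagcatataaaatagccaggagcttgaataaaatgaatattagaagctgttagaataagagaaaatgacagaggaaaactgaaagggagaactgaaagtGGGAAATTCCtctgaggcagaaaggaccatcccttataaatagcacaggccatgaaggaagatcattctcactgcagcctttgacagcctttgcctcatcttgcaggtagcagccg
Ccl12: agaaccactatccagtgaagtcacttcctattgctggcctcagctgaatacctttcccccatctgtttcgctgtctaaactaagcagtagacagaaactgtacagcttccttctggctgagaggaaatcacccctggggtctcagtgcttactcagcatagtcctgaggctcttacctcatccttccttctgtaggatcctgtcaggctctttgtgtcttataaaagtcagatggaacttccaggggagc
Capitals mark a match to the NF-kB consensus, 116 to 107 bases before the start of Ifnb1. Searched on either strand were the NF-kB consensus, the interferon-stimulated response element (GAAA, any 2 bases, GAAA) and the STAT element TTCNNNGAA. Among 32851 mouse promoters of this length, 7.25%, 2.98% and 7.02% held them in that order. The Ccl12 window held none of the 3. RefSeq promoters matched 4 of the 7 genes higher with AT38, of which Ifnb1 and Tnfrsf9 held the NF-kB consensus, and 8 of the 10 lower genes, of which 0 held it. The STAT element was in Tnfrsf9 among the higher genes and in Fpr2 and Il1f9 among the lower. The interferon-stimulated element with its gap of exactly 2 bases was in 0 of either. Other spacings were not searched, so related sites in the Ifnb1 window would not have been marked.

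Among receptors and interferon-induced genes, Iigp1, a GTPase that attacks vacuoles of intracellular microbes, was at 71.1 and 76.3 CPM with AT38, against 18.8 and 19.0 CPM with vehicle (log2 fold change 1.96 ± 0.29, edgeR adjusted p = 0.00759). It was spread over 59 members, and the fold change was 1.37 with no call after thinning to 2000 UMIs (edgeR adjusted p = 0.604). Iigp1 also did not pass by DESeq2 (DESeq2 adjusted p = 0.0591) or with equal weight per cell (limma adjusted p = 0.106). Tnfrsf9, the costimulatory receptor 4-1BB, was at 89.1 and 148 CPM with AT38, against 27.1 and 32.3 CPM with vehicle (log2 fold change 1.95 ± 0.30, edgeR adjusted p = 0.0129). Its call was lost without the 84 members that had a dendritic cell UMI, where the fold change was 1.56 (edgeR adjusted p = 0.55), and after thinning to 2000 UMIs, where it was 0.24 (edgeR adjusted p = 0.967). Fscn1, an actin-bundling protein typical of mature dendritic cells, was at 103 and 85.01 CPM with AT38, against 10.4 and 32.3 CPM with vehicle (log2 fold change 1.98 ± 0.32, edgeR adjusted p = 0.0178). It came from 17 members, 5 of which held 83.9% of its UMIs, and the migratory dendritic cell receptor Ccr7 was found in 13.9% and 15.5% of AT38 members and in 7.02% and 5.79% of vehicle members. Fscn1 was too low to be tested without the members that had a dendritic UMI. It did not pass with doublets removed (3.51, edgeR adjusted p = 0.316), with a C1q minimum of 8 (1.54, edgeR adjusted p = 0.201), with 2 marker UMIs (0.96, edgeR adjusted p = 0.957) or with equal weight per cell (limma adjusted p = 0.423).

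Chemokines that draw monocytes moved in opposite directions in the main fit, though each of those called lost its call in several alternatives. Ccl12, a ligand of the monocyte receptor CCR2, was at 437 and 478 CPM in AT38 members, against 240 and 205 CPM in vehicle members (log2 fold change 1.05 ± 0.17, edgeR adjusted p = 0.0148). Ccl7, a second CCR2 ligand, was at 826 and 595 CPM with AT38, against 384 and 387 CPM with vehicle (log2 fold change 0.89 ± 0.17, edgeR adjusted p = 0.0434). Ccl6 fell, at 1298 and 1294 CPM with AT38, against 2366 and 1916 CPM with vehicle (log2 fold change -0.72 ± 0.14, edgeR adjusted p = 0.0463). Of the 7 tested genes in this list, 2 rose and 1 fell, beside 0.227% of all genes called in either direction, and the list's median log2 fold change was 0.89. Without the members rich in neutrophil UMIs, Ccl12 had a fold change of 0.79 (edgeR adjusted p = 0.215) and Ccl7 0.80 (edgeR adjusted p = 0.282). Ccl12 also lost its call without vehicle 2 (edgeR adjusted p = 0.168), and Ccl6 without vehicle 1 (edgeR adjusted p = 0.289). Ccl8 was at 1410 and 976 CPM with AT38 and 925 and 210 CPM with vehicle, and it did not pass (log2 fold change 1.10 ± 1.00, edgeR adjusted p = 0.918). A single member held 359 of the 443 Ccl8 UMIs of vehicle 1. Without vehicle 1 the fold change was 2.53 and without AT38 2 it was 1.33, in fits that leave 1 library in a group. Of the alternatives that kept every library, only equal weight per cell gave a call for Ccl8 (limma adjusted p = 0.000239).

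Slpi, a secreted inhibitor of neutrophil elastase, was at 49.3 and 55.0 CPM with AT38, against 228 and 215 CPM with vehicle (log2 fold change -2.08 ± 0.20, edgeR adjusted p = 0.000159). A Slpi UMI was found in 15.7% and 14.3% of AT38 members and in 36.8% and 26.4% of vehicle members. Fn1, the matrix protein fibronectin, was at 216 and 134 CPM with AT38, against 443 and 606 CPM with vehicle (log2 fold change -1.58 ± 0.22, edgeR adjusted p = 0.0109). Slpi is made by neutrophils as well as by macrophages. Without the members rich in neutrophil UMIs its fold change was -1.28 (edgeR adjusted p = 0.87) and that of Fn1 was -1.40 (edgeR adjusted p = 0.369). Slpi also lost its call after thinning to 2000 UMIs, with a fold change of -1.49 (edgeR adjusted p = 0.108).

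Acod1, Il1f9 and Fpr2, known from inflamed myeloid cells, also fell. Acod1, which makes the antimicrobial metabolite itaconate, was at 244 and 275 CPM with AT38, against 491 and 525 CPM with vehicle (log2 fold change -0.97 ± 0.16, edgeR adjusted p = 0.0178). Il1f9, which encodes the IL-1 family cytokine IL-36 gamma, was at 16.1 and 27.5 CPM with AT38, against 83.5 and 94.8 CPM with vehicle (log2 fold change -2.07 ± 0.29, edgeR adjusted p = 0.00499). Fpr2, a receptor for formylated peptides, was at 37.9 and 31.2 CPM with AT38, against 79.3 and 99.2 CPM with vehicle (log2 fold change -1.37 ± 0.25, edgeR adjusted p = 0.026). In each the groups did not overlap, which the rule for named genes required. Without the members rich in neutrophil UMIs, Acod1 had a fold change of -0.57 (edgeR adjusted p = 0.973), and after thinning one of -0.07 (edgeR adjusted p = 0.993), and Fpr2 one of -0.24 (edgeR adjusted p = 0.982). Stfa2l1, of the stefin family whose near-identical members make its count uncertain, was at 4.74 and 12.5 CPM with AT38, against 29.2 and 55.7 CPM with vehicle (log2 fold change -2.43 ± 0.46, edgeR adjusted p = 0.0463) and came from 16 members. Without vehicle 2, fold changes of similar size did not pass for Iigp1 (1.95, edgeR adjusted p = 0.0635), Tnfrsf9 (2.10, edgeR adjusted p = 0.127), Ccl7 (0.88, edgeR adjusted p = 0.196), Fn1 (-1.34, edgeR adjusted p = 0.052), Acod1 (-0.93, edgeR adjusted p = 0.126) and Fpr2 (-1.19, edgeR adjusted p = 0.282), nor did Stfa2l1 (-1.81, edgeR adjusted p = 0.512). Ccl7 also did not pass without AT38 1 (edgeR adjusted p = 0.0827) or vehicle 1 (edgeR adjusted p = 0.0947), nor Stfa2l1 without AT38 1 (edgeR adjusted p = 0.0512). Slpi, Il1f9, Lpl, Cd5l, Ifnb1 and Fscn1 kept their direction in each fit that left out a library. Each such fit leaves 1 library in a group and called more genes than the main fit, so a call in it is weak. Il1f9 was not called with 2 marker UMIs (-1.725, edgeR adjusted p = 0.0898) or without members with a dendritic UMI (-1.958, edgeR adjusted p = 0.0847).

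Lipid-associated genes gave 2 falls and no rise among 15 tested, beside 0.134% of all genes lower, with a list median of -0.17. Lpl, the lipoprotein lipase, was at 118 and 105 CPM with AT38, against 284 and 231 CPM with vehicle (log2 fold change -1.18 ± 0.19, edgeR adjusted p = 0.0139). Its call was lost after thinning to 2000 UMIs (-0.61, edgeR adjusted p = 0.582), without neutrophil-rich members (-1.31, edgeR adjusted p = 0.842), without members with a dendritic UMI (-0.82, edgeR adjusted p = 0.391) and with equal weight per cell (limma adjusted p = 0.182). Gpnmb, a glycoprotein of lipid-laden macrophages, was at 3.79 and 7.50 CPM with AT38, against 64.7 and 31.2 CPM with vehicle (log2 fold change -3.01 ± 0.51, edgeR adjusted p = 0.0193). Gpnmb rested on 17 members, and Cd5l, a secreted protein of resident macrophages, on 10. Cd5l was at 0.948 and 2.50 CPM with AT38, against 54.3 and 32.3 CPM with vehicle (log2 fold change -4.54 ± 0.59, edgeR adjusted p = 0.00413), with 84.5% of its UMIs in 5 cells. With each cell given equal weight, Gpnmb (limma adjusted p = 0.204) and Cd5l (limma adjusted p = 0.167) did not pass, and Gpnmb was not called without vehicle 1 (edgeR adjusted p = 0.0611). The remaining gene above the threshold, the gene model Gm42418, is named here outside the rule for named genes because of its level. It overlaps ribosomal RNA sequence and was at 11539 and 12120 CPM with AT38, against 7270 and 8360 CPM with vehicle.

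**Figure D3:**
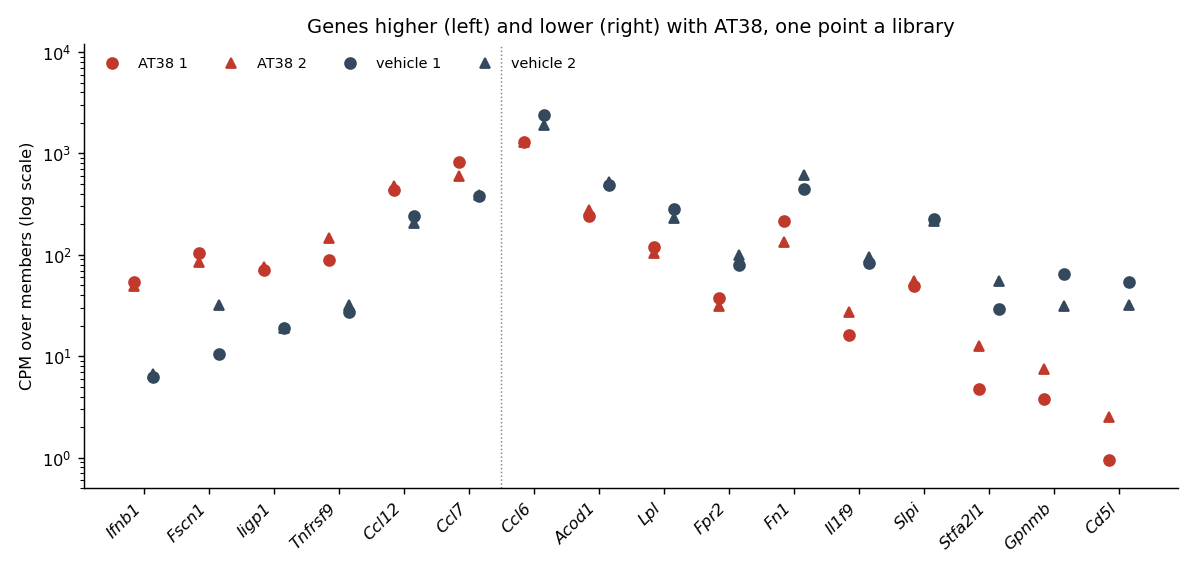
CPM on a log axis of the 16 named genes higher (left of the dotted line) or lower with AT38 in members, with a point for each library, AT38 in red and vehicle in dark blue. The AT38 and vehicle points of every gene are separate, as the rule for named genes required. Slpi was at 49.3 and 55.0 CPM with AT38 and at 228 and 215 CPM with vehicle.

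Interferon-response genes leaned upward with AT38, and of those listed only Iigp1 passed the main edgeR test. Of 19 type I interferon response genes tested, 0 passed by edgeR, and DESeq2 called 1, Isg15. An unadjusted p under 0.05 was found for 8, beside 561 of all 7488 genes tested. All 19 had a positive estimate, with a median log2 fold change of 0.78 beside -0.000105 over all genes. In 12 of them both AT38 libraries lay above both vehicle libraries, beside 18.3% of all genes tested. Isg15, a ubiquitin-like antiviral modifier, was at 217 and 304 CPM with AT38 and 52.2 and 106 CPM with vehicle (log2 fold change 1.65 ± 0.29, edgeR adjusted p = 0.0638). It was called with doublets removed (edgeR adjusted p = 0.0158), after thinning (edgeR adjusted p = 0.0427) and by DESeq2 (DESeq2 adjusted p = 0.00291). It also passed without neutrophil-rich members (edgeR adjusted p = 0.018) and without members with a dendritic UMI (edgeR adjusted p = 0.0437). With a C1q minimum of 8 or RLE factors Isg15 was not called. Ifi44 was at 18.0 and 17.5 CPM with AT38 and 2.09 and 1.11 CPM with vehicle (edgeR adjusted p = 0.0786), and Bst2, which tethers budding virus, was at 344 and 309 CPM with AT38 and 157 and 221 CPM with vehicle (edgeR adjusted p = 0.134). Over the alternatives fitted to counts the list's median lay between 0.56 and 1.05, and 0 to 5 of its genes were called. Of 21 interferon gamma response genes tested, Iigp1 rose and none fell, the median was 0.47, and 13 lay above vehicle in both libraries, beside the same 18.3%. Gbp4, an interferon-induced guanylate-binding protein, was at 89.1 and 164 CPM with AT38 and 35.5 and 42.4 CPM with vehicle (edgeR adjusted p = 0.066). By DESeq2 Gbp4 was called (DESeq2 adjusted p = 0.0457) and Iigp1 was not.

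Most other functions showed no call, though the estimates of some lists leaned up or down. Of 16 resident-like genes, 10 alternative activation genes, 10 MHC class II genes, 14 NRF2 targets, 16 hypoxia and glycolysis genes and 10 proliferation genes tested, 0 passed by edgeR in either direction. At an unadjusted p under 0.05 these lists held 4, 2, 4, 5, 1 and 3 genes in that order, beside 561 of all 7488 genes tested, and DESeq2 called 0 in each. Estimates were positive in 9, 9, 7, 2, 7 and 10 genes in the same order. The median log2 fold change was 0.56 for alternative activation genes, 0.60 for proliferation genes and -0.355 for NRF2 targets. Both AT38 libraries lay below both vehicle libraries in 7 of the 14 NRF2 targets, beside 19.2% of all genes tested. Mgl2, a lectin of alternatively activated macrophages, was at 627 and 619 CPM with AT38 and 407 and 358 CPM with vehicle (log2 fold change 0.71 ± 0.15, edgeR adjusted p = 0.0786). Il10, an anti-inflammatory cytokine, was at 93.8 and 148 CPM with AT38 and 50.1 and 49.1 CPM with vehicle (log2 fold change 1.28 ± 0.26, edgeR adjusted p = 0.066). Cxcl9 was at 341 and 759 CPM with AT38 and 154 and 231 CPM with vehicle (edgeR adjusted p = 0.664). Spp1, Lyve1 and Cd163 overlapped between the groups. Nos2, the inducible nitric oxide synthase, had 0 UMIs in 3 libraries and 6 UMIs in vehicle 2, and was not tested.

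More genes were called between members and Arg1 macrophages of the same libraries than between AT38 and vehicle members. These counts do not compare the sizes of the differences. The classes were compared within each of 4 libraries, and the treatments as 2 libraries against 2. Of 7494 genes outside the rule tested with a term for the library, 128 were higher (1.71%) and 150 lower (2%) in members by edgeR's quasi-likelihood test. Members were higher in genes of resident-like macrophages and in immediate early and heat shock genes, and lower in genes of glycolysis and of the response to low oxygen. The classes were cut on UMIs of 9 genes in these same cells, so genes that vary with those 9 had to differ, and these tests describe what accompanies the gate. The members' cells were also shallower than the Arg1 macrophages, by the medians given above.

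Hypoxia and glycolysis genes were lower in members. Of 16 genes tested, 13 were lower in members and none higher, beside 3.71% of all genes called in either direction, and the median log2 fold change was -0.87. In 14 of the 16, members were below Arg1 macrophages in all 4 libraries, as were 8.69% of all genes tested, while 12.7% of all genes were above in all 4. Pgk1, a kinase of glycolysis, was at 362, 365, 380 and 454 CPM in members of AT38 1, AT38 2, vehicle 1 and vehicle 2, against 800, 684, 974 and 846 CPM in Arg1 macrophages in that order (log2 fold change -1.11 ± 0.10, edgeR adjusted p = 1.3e-07). Slc2a1, the glucose transporter GLUT1, was at 102, 92.5, 89.8 and 85.8 CPM in members, against 158, 185, 258 and 187 CPM in Arg1 macrophages (log2 fold change -1.09 ± 0.14, edgeR adjusted p = 1.43e-05). Vegfa, the main growth factor for blood vessels, was at 305, 201, 169 and 316 CPM in members, against 612, 486, 563 and 514 CPM in Arg1 macrophages (log2 fold change -1.19 ± 0.13, edgeR adjusted p = 1.07e-05). Neither gene overlapped between the classes. The list kept 12 to 15 calls under every alternative, and after thinning to 2000 UMIs, which removes the difference in depth, 12 of 13 tested genes were lower.

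Outside that list, the matrix gene Fn1 was lower in members. It was at 216, 134, 443 and 606 CPM in members, against 1595, 795, 2675 and 2633 CPM in Arg1 macrophages (log2 fold change -2.57 ± 0.11, edgeR adjusted p = 3.63e-13). The other named falls were the mitophagy receptor Bnip3, Fam162a, the lipid droplet gene Hilpda, the actin-capping gene Capg and the glycolytic enzyme gene Pfkl, with log2 fold changes from -1.52 to -1.20. Bnip3 lost its call without vehicle 1 or without vehicle 2. Nos2 was at 0, 0, 0 and 6.69 CPM in members, against 71.8, 20.7, 54.5 and 20.3 CPM in Arg1 macrophages. It was lower in members of all 4 libraries, but did not pass (edgeR adjusted p = 0.108).

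Resident-like macrophage genes were higher in members for 6 of 15 tested and lower for none, beside 1.71% of all genes higher and 2% lower, with a median log2 fold change of 0.80. Gas6 was at 184, 142, 202 and 98.1 CPM in members, against 43.7, 47.1, 19.6 and 36.8 CPM in Arg1 macrophages (log2 fold change 2.02 ± 0.30, edgeR adjusted p = 0.0154). Selenop, a secreted selenium carrier, was at 1098, 1128, 1405 and 903 CPM in members, against 532, 505, 313 and 316 CPM in Arg1 macrophages (log2 fold change 1.43 ± 0.19, edgeR adjusted p = 0.0106). Maf, a transcription factor of macrophage differentiation, was at 518, 385, 512 and 380 CPM in members, against 228, 296, 178 and 210 CPM in Arg1 macrophages (log2 fold change 0.95 ± 0.14, edgeR adjusted p = 0.000545). Fcgrt, Cbr2 and the scavenger receptor Stab1 completed the 6. Without AT38 1 or without AT38 2, 4 and 3 genes of this list passed, and Gas6 and Cbr2 lost their calls in both cases. Lyve1 and Cd163 did not pass, with log2 fold changes of 0.79 ± 0.47 (edgeR adjusted p = 0.617) and 1.05 ± 0.64 (edgeR adjusted p = 0.617).

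Stress-response and antigen-presentation genes were also higher in members. Of 14 immediate early and heat shock genes, 8 were higher and none lower, with a median of 0.35. Of all genes tested, 1.71% were higher and 2% lower. Leaving out a library gave 4 higher without AT38 1, 5 without either vehicle library and 10 without AT38 2, and over all alternatives 4 to 11 were higher. Hspa1a was at 767, 473, 823 and 677 CPM in members, against 221, 207, 386 and 218 CPM in Arg1 macrophages (log2 fold change 1.40 ± 0.12, edgeR adjusted p = 3.02e-08), and its neighbour Hspa1b, a near-identical HSP70 gene with which reads may be split, had a log2 fold change of 1.44. Fos, Fosb, Jun, Junb, Egr1 and Atf3 were higher by 0.31 to 0.50. Of 10 MHC class II genes, 5 were higher and the protease Ctss lower, beside the same shares of all genes tested. H2-Eb1 was at 4838, 5177, 4075 and 3639 CPM in members, against 4356, 3616, 2938 and 2187 CPM in Arg1 macrophages (log2 fold change 0.43 ± 0.09, edgeR adjusted p = 0.00314). The MHC class II calls were 0 higher without vehicle 2 and 1 higher without vehicle 1. C4b, a complement component, was higher by 1.41 ± 0.18, and F13a1, clotting factor XIII A, by 1.45 ± 0.26. Clec10a, a galactose lectin close to Mgl2 in sequence, was higher by 1.40 ± 0.23, and each had an adjusted p under 0.05 by edgeR. F13a1 is also among the 6 monocyte markers, of which 6 had a higher estimate in members and only F13a1 was called. F13a1 lost its call with doublets removed (edgeR adjusted p = 0.0659), at 20% mitochondrial UMIs (edgeR adjusted p = 0.0595) and without AT38 1 (edgeR adjusted p = 0.132) or AT38 2 (edgeR adjusted p = 0.23).

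**Figure D4:**
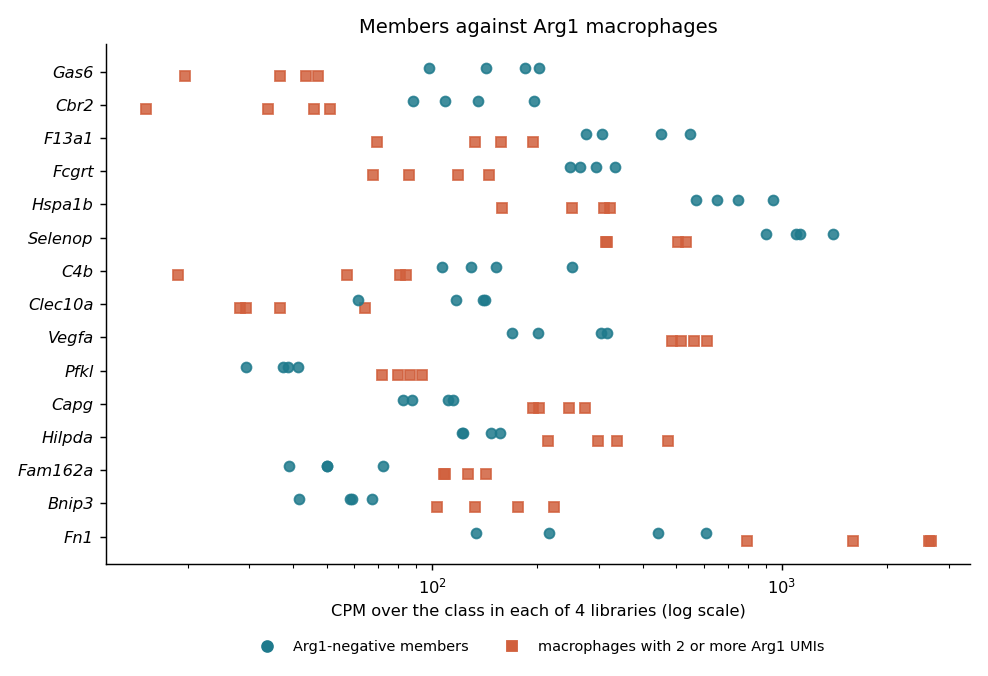
CPM on a log axis of 15 named genes higher (upper rows) or lower (lower rows) in members (teal circles, upper of each pair) against Arg1 macrophages (orange squares), with a point for each of 4 libraries. Members are below Arg1 macrophages in every library for Fn1, at 134 to 606 CPM against 795 to 2675 CPM.

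Ccl8 was higher in members than in Arg1 macrophages of every library, at 1410, 976, 925 and 210 CPM, against 603, 360, 48.2 and 77.4 CPM, but the libraries differed too much for a call (log2 fold change 1.90 ± 0.66, edgeR adjusted p = 0.399). Within Arg1 macrophages, where 54 of 7816 genes tested were called (0.691%), 30 higher (0.384%) and 24 lower (0.307%) with AT38, Ccl8 rose with AT38, at 603 and 360 CPM, against 48.2 and 77.4 CPM with vehicle (log2 fold change 2.92 ± 0.32, edgeR adjusted p = 0.0169). The difference between the classes in this effect was not detectable (edgeR adjusted p = 0.954). Ccl12 rose with AT38 in both, by 1.05 in members and by 1.60 in Arg1 macrophages (edgeR adjusted p = 0.000425).

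The effect of AT38 differed between members and Arg1 macrophages for 23 of 8234 genes tested (0.279%), 10 with a higher and 13 with a lower effect in members. Lpl, Gpnmb and the lysosomal protease gene Ctsd were lower in AT38 than in vehicle libraries in members and higher in Arg1 macrophages. Lpl was at 118 and 105 CPM with AT38, against 284 and 231 CPM with vehicle in members, and at 360 and 429 CPM with AT38, against 184 and 198 CPM with vehicle in Arg1 macrophages. The difference of its effects was -2.22 ± 0.24 (edgeR adjusted p = 1.42e-06). Gpnmb was at 48.9 and 190 CPM with AT38, against 16.1 and 18.1 CPM with vehicle in Arg1 macrophages, where it did not pass alone, and the difference of its effects was -5.61 ± 0.51 (edgeR adjusted p = 4.75e-08). Ctsd, which encodes cathepsin D, was at 869 and 798 CPM with AT38, against 1514 and 1086 CPM with vehicle in members, and at 1666 and 2492 CPM with AT38, against 1084 and 1086 CPM with vehicle in Arg1 macrophages. The difference of its effects was -1.52 ± 0.21 (edgeR adjusted p = 0.0025).

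Chemokine and matrix genes differed too. Ccl5, a chemokine for T cells, was in members at 208 and 241 CPM with AT38 and 213 and 221 CPM with vehicle, and rose in Arg1 macrophages, at 423 and 580 CPM with AT38, against 132 and 101 CPM with vehicle (edgeR adjusted p = 0.000278, difference of effects -2.06 ± 0.24, edgeR adjusted p = 2.74e-06). Vcan, the matrix proteoglycan versican, fell with AT38 in Arg1 macrophages, at 23.9 and 20.7 CPM, against 88.4 and 78.0 CPM with vehicle (edgeR adjusted p = 0.00468), and was at 68.2 and 63.8 CPM with AT38 and 29.2 and 55.7 CPM with vehicle in members. Il10 had a higher effect in members by 2.01 ± 0.33 (edgeR adjusted p = 0.00123). Of the other genes with a higher effect in members, Krt8 and the epithelial gene Wfdc2 named here after their values were seen, had their highest member level in AT38 1, at 53.1 and 39.8 CPM, where 1 member held 55 of 56 Krt8 UMIs. After thinning to 2000 UMIs, 5 genes passed, 2 of them among the 23, and with the C1q minimum at 8 there were 8, all among the 23. Lpl, Ccl5 and Il10 lost their calls after thinning, and Ctsd and Vcan with the C1q minimum at 8. DESeq2 called the difference for Lpl, Ccl5 and Ctsd but not for Gpnmb, Il10 or Vcan.

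**Figure D5:**
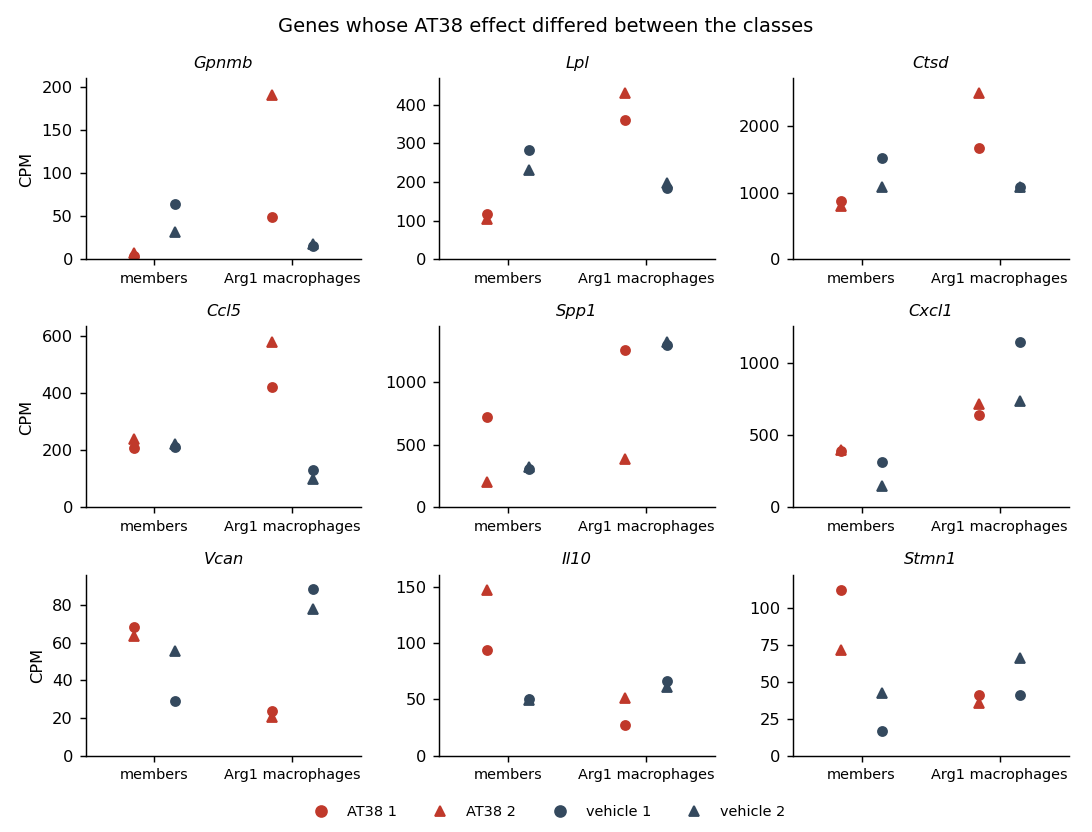
CPM in members (left of each panel) and Arg1 macrophages (right) of 9 genes whose AT38 effect differed between the classes, with a point for each library, AT38 in red and vehicle in dark blue. Lpl was at 118 and 105 CPM with AT38 and 284 and 231 CPM with vehicle in members, and the order is the opposite in Arg1 macrophages.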

How the data were processed

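Raw UMI counts per gene and barcode were deposited by the authors for 4 droplet 3′ single-cell RNA-seq libraries, made with Cell Ranger 3.1.0 against mm10 per the submitters' processing notes. The annotation release is not given in the sources used here. The files listed 31053 genes and 18001 barcodes, of which 876 had too few genes and 3142 too high a mitochondrial share, leaving 14855.

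The members and gene lists were chosen with earlier results of these data known. UMIs were summed per library and class and tested with edgeR 4.0.16 (quasi-likelihood, TMM, filterByExpr, Benjamini-Hochberg over all genes tested) in R 4.3.3, without the 9 genes of the rule. Members were compared with Arg1 macrophages with a term for library, and the difference of AT38 effects with an interaction term. Shares were compared by an exact two-sided permutation test over libraries. The tests were tried on simulated data with known changes. Libraries are pools of mice, so p-values measure the spread between pools.

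Named genes were the 10 largest rises and falls with AT38, and the 8 largest against Arg1 macrophages, that passed the test, a minimum mean of 20 or 50 CPM and the same direction in every library, plus list genes with the smallest p, the leading interaction genes and 7 genes fixed by name. Some of the genes measured are not reported here. No doublets were removed, because the caller's own threshold marked only 3 barcodes (0.0167%); an alternative removed the 683 barcodes with the highest scores (3.79%). Other alternatives were gate limits, thinning, DESeq2 1.42.0, RLE factors, no count filter, equal weight per cell (limma 3.58.1), a replicate block and leaving out each library. Gene positions are from GENCODE (mm10), promoters from RefSeq (GRCm38.p6).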

Additional observations from a re-analysis of the deposited data

Results flagged for a closer look

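A test of the difference itself found that the effect of AT38 differed between members and Arg1 macrophages for 23 genes by edgeR. On the log2 scale, the effect in members minus that in Arg1 macrophages was -5.606 for Gpnmb, -2.216 for Lpl, -2.065 for Ccl5 and -1.523 for Ctsd. It was 2.423 for Vcan, 2.093 for the cell-cycle and microtubule gene Stmn1, 2.01 for Il10, 1.299 for the neutrophil chemokine Cxcl1 and 1.203 for Spp1. Cxcl1 was at 388 and 400 CPM with AT38 and 315 and 149 CPM with vehicle in members, and at 641 and 716 CPM with AT38 and 1143 and 738 CPM with vehicle in Arg1 macrophages. Stmn1 was at 112 and 71.3 CPM with AT38 and 16.7 and 42.4 CPM with vehicle in members, and at 40.6 and 35.8 CPM with AT38 and 41.1 and 65.9 CPM with vehicle in Arg1 macrophages. Spp1 was at 717 and 203 CPM with AT38 and 303 and 319 CPM with vehicle in members, so that its groups overlapped there. After thinning to 2000 UMIs, Cxcl1, Spp1 and Stmn1 lost their calls, as did Lpl, Ccl5 and Il10. With a C1q minimum of 8, Cxcl1 and Spp1 were not called, nor were Ctsd and Vcan. DESeq2 did not call Stmn1, Gpnmb, Il10 or Vcan.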

How the results depend on the processing

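The higher share of members with AT38 kept its direction under every alternative run, with differences of 0.457 to 0.989 points of kept cells and 10.2 to 11.7 points of C1q macrophages when a library was left out. The 7 genes higher and 10 lower with AT38 were 3 higher with a C1q minimum of 8, 6 lower with 2 marker UMIs, 11 higher and 3 lower after thinning, 61 and 50 with no count filter, and 22 and 21 with equal weight per cell. Of the 17 genes, 9 were called with a C1q minimum of 8 and 9 with 2 marker UMIs. After thinning, 4 of the 11 still tested were called. With equal weight per cell 7 of the 17 were among the 43 genes called, and with no count filter all 17 were called. Without the members rich in neutrophil UMIs 2 genes were lower, and 5 of the 14 still tested were called. Without those with a dendritic UMI 5 were lower, and 8 of the 15 still tested were called. Both alternatives were chosen after seeing the data. Leaving out a library gave 10 to 91 higher and 14 to 46 lower, with 9 to 17 of the 17 genes shared. With a replicate block 33 were higher and 38 lower, including all 17. The sources used here do not say whether the replicate numbers pair the libraries. The deviations of AT38 1 and vehicle 1 from their group means had r = 0.0715 over 7494 genes, which cannot settle pairing with 2 libraries a group. Against Arg1 macrophages DESeq2 called 53 higher and 71 lower, and leaving out a library gave 73 to 133 and 91 to 171. The 23 genes of the interaction were 8 with a C1q minimum of 8, 5 after thinning, 8 by DESeq2 and 50 to 101 without a library. The cause was not tested for any of these.

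Some log2 fold changes of genes that did not pass changed sign. For AT38 in members, Ccl5 was -1.006 with a C1q minimum of 8, -0.4233 with 2 marker UMIs and -0.07791 to 0.1739 without a library. Lyve1 was -0.2321 with the mitochondrial maximum at 20%, -0.4472 after thinning, -0.02054 with the replicate block and -0.9788 to 0.9477 without a library. Spp1 was -0.9588 with 2 marker UMIs, -1.119 after thinning, -0.5346 without dendritic UMIs, -0.2878 with equal weight and -0.5978 to 1.191 without a library. Vcan was -0.4296 with a C1q minimum of 8, -0.2646 with 2 marker UMIs and -0.01614 with equal weight. Gsr was 0.1073 after thinning, 0.214 without neutrophil-rich members and 0.02446 with equal weight, and Cd209f was -0.2201 at 20% mitochondrial. Against Arg1 macrophages, Vcan was -0.003914 at 20% mitochondrial, -0.6312 with a C1q minimum of 8, -0.5198 with 2 marker UMIs and -0.3246 to 0.5464 without a library. Without a library Ccl5 was -0.6493 to 0.1557, Cxcl9 -0.2599 to 0.2968 and Gpnmb -2.202 to 0.02836. Of the other values of named genes in alternatives that kept every library, 994 kept direction and side of the threshold, 97 lost and 86 gained a call. The fits that left out a library are not in these counts. With 57 to 121 members a library, genes under about 20 CPM rest on few UMIs.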
